A study of Mus musculus with 4 samples.

Results

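Switch junctions of B cells carrying CtIP T855A were set beside those of B cells with a CtIP deletion allele. The 2 libraries were chosen by sample title, CtIP_AA and CtIP_KO, and together hold 5775 of the 18731 junctions in the 4 libraries of the series. CtIP_AA, whose label gives CtIP T855A/T855A and names neither a Cre nor an XRCC4 allele, held 3220 junctions. CtIP_KO, labelled CD21Cre+ CtIP C/- XRCC4 +/C, held 2555. The Wildtype library, labelled CD21Cre+ CtIP +/C XRCC4 +/C, held 9435 junctions. It serves as background and gives the borders for prey position and bait length. Despite its title, its label names Cre and a C allele of both CtIP and XRCC4. All libraries came from CD43- splenic B cells of mice with preassembled IgH and IgK loci. The cells were activated in culture over 4 days by anti-CD40 (1 ng/ml) plus IL-4 (20 ng/ml).

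The CD21 promoter drives Cre in mature B cells, and how completely it deleted the C allele of CtIP_KO was not analysed here, so CtIP_KO may hold cells that kept CtIP. The Cre and XRCC4 genotypes of CtIP_AA and CtIP_KO differ by their labels as well as CtIP, and these differences cannot be told apart. The strain label is BL6 and the growth protocol names 129Sv, so the strain was not settled. Neither the substitution nor the deletion can be checked in junction data. Each genotype is 1 library with no replicate, so every Fisher's exact test (two-sided) compares 2 libraries, not 2 genotypes, and every interval covers counting error only.

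Class switch recombination replaces the constant region of an antibody by joining a break in Sμ, which lies before the IgM constant exons, to one in a downstream switch region. The breaks begin with cytosine deamination by AID, which favours AGCT motifs, and culture with anti-CD40 and IL-4 directs joining to Sγ1 and Sε, for IgG1 and IgE. CtIP works with the MRE11 complex to start resection of DNA ends, which exposes short matching sequences that can be paired in alternative end joining. The threonine replaced in CtIP_AA corresponds to a human CtIP residue phosphorylated by the DNA damage kinases ATM and ATR.

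Breaks in Sμ served as bait. Fragments were copied with a biotinylated primer in Sμ and amplified with a nested primer, and AflII cut unrearranged Sμ. The bait is shown because every bait end lies along it. The first 130 bases, read from the nested primer toward the break, are the majority base at each place in the CtIP_AA and CtIP_KO reads (mm9, chr12:114664780-114664909, minus strand). The AflII site is in capitals.
biotin primer: cagacctgggaatgtatggt
nested primer: cacacaaagactctggacctc
bait: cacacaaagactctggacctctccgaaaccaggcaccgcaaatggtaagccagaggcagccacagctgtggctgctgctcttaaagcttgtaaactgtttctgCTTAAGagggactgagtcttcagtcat

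The deletional join (both ends on the minus strand, the orientation that removes the DNA between them) with the most reads in each library and region is shown next, as 20 bases of bait, the shared or inserted bases in capitals, and 20 bases of prey. The capitals are microhomology (bases that match both sides) in the first 3 and an insertion in the last.
CtIP_AA Sγ1 join: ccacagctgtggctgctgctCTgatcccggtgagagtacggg
CtIP_KO Sγ1 join: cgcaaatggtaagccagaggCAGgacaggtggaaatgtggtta
CtIP_AA Sμ join: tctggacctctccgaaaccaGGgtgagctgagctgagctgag
CtIP_KO Sμ join: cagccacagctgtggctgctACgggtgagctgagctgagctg
The CtIP_AA Sγ1 join linked chr12:114664829 to chr12:114572324 in 5 CtIP_AA reads and in 0 CtIP_KO reads. The CtIP_KO Sγ1 join linked chr12:114664851 to chr12:114573651 and had 1 read in CtIP_AA and 4 in CtIP_KO. The Sμ joins had 6 reads in CtIP_AA with 0 in CtIP_KO, and 0 in CtIP_AA with 3 in CtIP_KO. No join shown had more than 6 reads.

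One set of reads stood apart in both libraries. Their bait alignment began at read base 7, after 6 bases that precede the nested primer. In the 3 switch regions there were 289 such reads in CtIP_AA (9.52% of switch junctions) and 317 in CtIP_KO (13.4%). The same 4 strings of 6 bases accounted for 97.6% of them in CtIP_AA and 96.5% in CtIP_KO. The most frequent string had 98 reads in CtIP_AA and 107 in CtIP_KO, and the second 81 in CtIP_AA and 97 in CtIP_KO. Within Sγ1, microhomology was more frequent in these reads than in the others, at 57.3% against 49.0% in CtIP_AA and 55.1% against 50.4% in CtIP_KO. They were a larger part of Wildtype blunt joins. Leaving them out took blunt joins with a measured bait from 2041 to 1401 in Wildtype. The counts went from 699 to 641 in CtIP_AA and from 592 to 523 in CtIP_KO. Wildtype shares, and the borders taken from Wildtype, include these reads throughout. The median bait of Wildtype blunt joins was 64 bases with and without them. What these reads are was not tested, and results are given with and without them where a call changes. For the share and join classes of junctions outside IgH, no version without them was run. No read name was shared between CtIP_AA and CtIP_KO. A name belongs to a single sequenced read, so this cannot show whether molecules were shared between the libraries.

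The first comparison asked where the Sμ breaks were joined. Junctions to Sε made up a smaller share of CtIP_AA than of CtIP_KO, and junctions within Sμ a larger share. Sε took 774 junctions in CtIP_AA (24.0%, 95% Wilson interval 22.6 to 25.5), 763 in CtIP_KO (29.9%, 28.1 to 31.7), with 27.8% in Wildtype. The odds ratio of CtIP_AA over CtIP_KO was 0.743 (0.660 to 0.837, Fisher's exact adjusted p = 3.73e-06). Sμ took 848 junctions in CtIP_AA (26.3%), 562 in CtIP_KO (22.0%) and 24.7% in Wildtype (odds ratio 1.27, 1.12 to 1.44, exact adjusted p = 0.000369). The Wildtype share lay between those of CtIP_AA and CtIP_KO in both regions. Of the 5 places compared, 4 passed the adjusted threshold of 0.05 (80.0%). The 5 shares add up to the whole of a library, so these calls are not independent. Over all 96 tests reported here, 22 passed (22.9%) when adjusted within each kind of result and 18 (18.8%) when adjusted together.

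**Figure D1:**
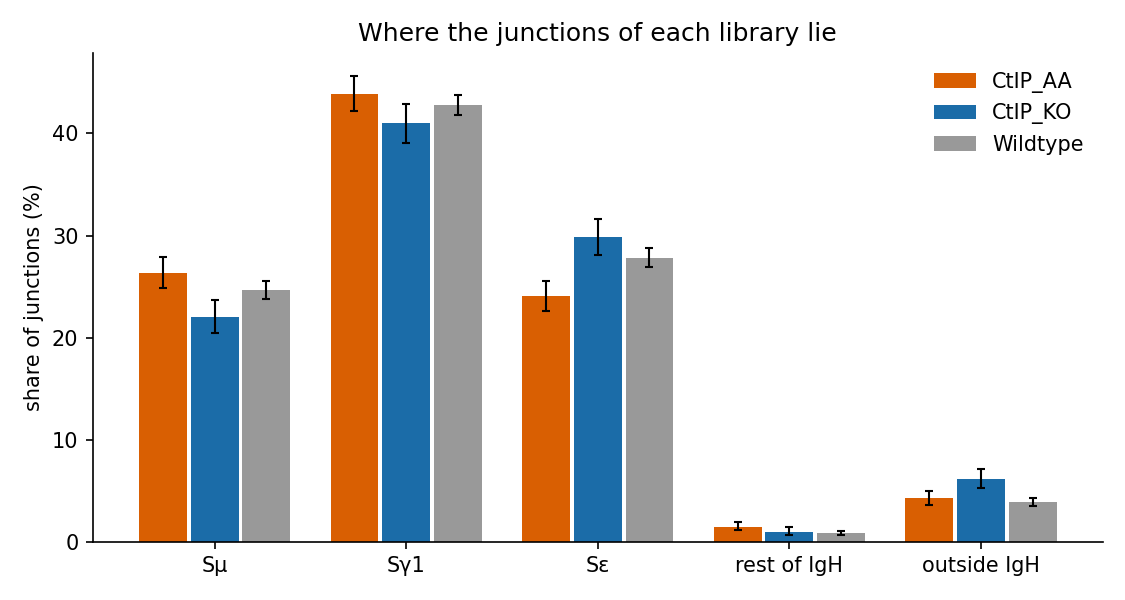
Share of junctions (%) in 5 places for CtIP_AA, CtIP_KO and Wildtype, with bars for 1 library each and 95% Wilson intervals as error bars. Sε holds 24.0% in CtIP_AA and 29.9% in CtIP_KO, and Sμ 26.3% in CtIP_AA and 22.0% in CtIP_KO.

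Junctions outside IgH made up 4.25% of CtIP_AA (3.61 to 5.01), 6.18% of CtIP_KO (5.31 to 7.19) and 3.87% of Wildtype (odds ratio of CtIP_AA over CtIP_KO 0.674, 0.529 to 0.859, exact adjusted p = 0.00188). Sγ1 took 43.9% in CtIP_AA, 41.0% in CtIP_KO and 42.8% in Wildtype. Its odds ratio of 1.13 (exact adjusted p = 0.0350) did not keep its call with each prey position counted once (1.10, adjusted p = 0.129), with junctions outside IgH left out (1.09, adjusted p = 0.122) or without the reads with 6 extra bases (1.12, adjusted p = 0.0824). Among junctions to the downstream regions Sγ1 and Sε, Sε had 35.4% (33.4 to 37.4) in CtIP_AA, 42.2% (39.9 to 44.4) in CtIP_KO and 39.4% in Wildtype. The odds ratio was 0.752 (0.660 to 0.856, exact p = 1.39e-05), and 0.721 without the reads with 6 extra bases.

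The rest of the IgH locus held 48 junctions in CtIP_AA (1.49%), 25 in CtIP_KO (0.978%) and 0.827% of Wildtype, a difference that missed the threshold (odds ratio 1.53, 0.923 to 2.60, exact adjusted p = 0.0966). Downstream of Sε lay 22 of these in CtIP_AA, at 19 distinct positions, and 7 in CtIP_KO, at 6 positions. The share there was 0.683% in CtIP_AA, 0.274% in CtIP_KO and 0.265% in Wildtype, and the odds ratio of 2.50 (1.03 to 6.95) did not pass the adjustment over 4 zones (exact adjusted p = 0.151). Between Sγ1 and Sε there were 12 in CtIP_AA, from chr12:114516858 to chr12:114550312, and 8 in CtIP_KO, from chr12:114548588 to chr12:114550924. No gene or region name was assigned to these coordinates.

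Most switch junctions were deletional. In Sμ, 83.1% were deletional in CtIP_AA (80.5 to 85.5), 77.6% in CtIP_KO (74.0 to 80.8), with 77.1% in Wildtype (odds ratio of CtIP_AA over CtIP_KO 1.42, 1.08 to 1.88, exact adjusted p = 0.0233). Counting each position and strand once gave 1.20 (exact adjusted p = 0.628). In Sγ1 the share was 92.9% in CtIP_AA and 90.7% in CtIP_KO (odds ratio 1.34, exact adjusted p = 0.0679), and in Sε 94.6% in CtIP_AA and 93.4% in CtIP_KO (1.22, 0.784 to 1.91, adjusted p = 0.390). Without the reads with 6 extra bases the Sγ1 odds ratio was 1.42 (exact adjusted p = 0.0313). Deletional was called by strand alone. In Sμ it therefore includes joins whose prey lay upstream of the bait, listed as 7 in CtIP_AA and 13 in CtIP_KO.

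Prey ends in both downstream regions lay closer to Sμ in CtIP_AA than in CtIP_KO. On mm9 the IgH locus runs on the minus strand, so a higher coordinate is nearer to Sμ. The median deletional junction in Sε was at chr12:114513979 in CtIP_AA (95% order-statistic interval 114513861 to 114514059, 732 junctions), chr12:114513710 in CtIP_KO (114513603 to 114513797, 713 junctions) and chr12:114513778 in Wildtype. The CtIP_AA median was 269 bp above that of CtIP_KO. In CtIP_AA, 58.3% of these junctions lay above the Wildtype median (54.7 to 61.9), against 47.0% in CtIP_KO (43.3 to 50.7). The odds ratio was 1.58 (1.28 to 1.96, exact adjusted p = 5.79e-05).

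In Sγ1 the deletional median was chr12:114573950 in CtIP_AA (114573869 to 114574040, 1313 junctions), chr12:114573714.5 in CtIP_KO (114573618 to 114573842, 950 junctions) and chr12:114573668 in Wildtype. It was 235.5 bp higher in CtIP_AA than in CtIP_KO. Above the Wildtype median lay 59.5% in CtIP_AA and 51.6% in CtIP_KO (odds ratio 1.38, 1.16 to 1.64, exact adjusted p = 0.000284). The lower quartile was chr12:114572985 in CtIP_AA and chr12:114572385 in CtIP_KO, while the upper quartiles were closer, at chr12:114574732 in CtIP_AA and chr12:114574688 in CtIP_KO. Without the reads with 6 extra bases, the medians of CtIP_AA and CtIP_KO differed by 323.5 bp in Sγ1 and 270.5 bp in Sε.

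**Figure D2:**
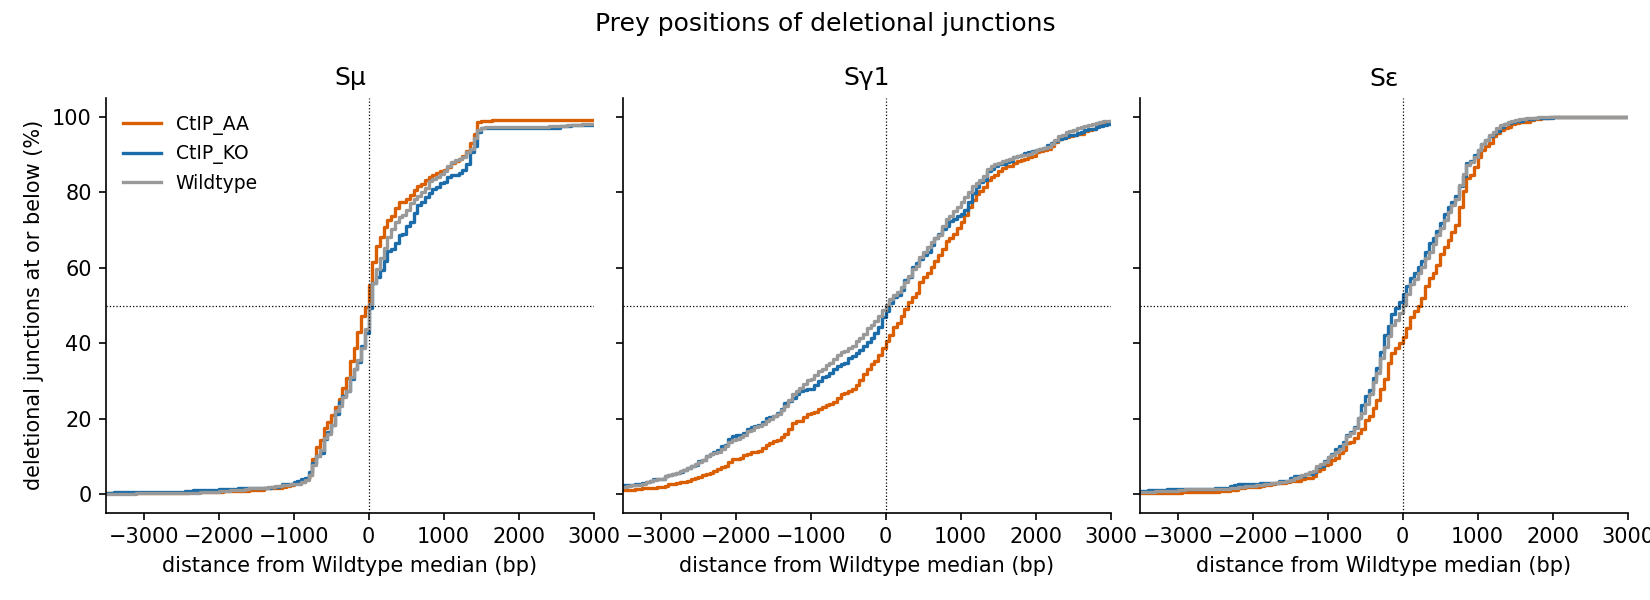
Cumulative share (%) of deletional junctions against distance from the Wildtype median (bp, 1 step per 50 bp, positive toward the bait), for CtIP_AA, CtIP_KO and Wildtype in each switch region. The CtIP_AA curve runs right of the CtIP_KO and Wildtype curves around the median in Sγ1 and Sε, where 59.5% and 58.3% of its junctions lie above 0.

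Within Sμ the medians lay in the other order. The median was chr12:114663339 in CtIP_AA and chr12:114663389 in CtIP_KO, and 44.7% of CtIP_AA junctions and 50.7% of CtIP_KO junctions lay above the Wildtype median. The odds ratio of 0.786 (0.614 to 1.01) missed the threshold (exact adjusted p = 0.0509). It passed with both strands counted (0.758, exact adjusted p = 0.0123) and without the reads with 6 extra bases (0.753, adjusted p = 0.0282). The DNA removed within Sμ had a median length of 1512 bp in CtIP_AA (1473 to 1561, 685 junctions) and 1477 bp in CtIP_KO (1438 to 1502, 419 junctions), with overlapping intervals.

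Of 26 windows of 500 bp with at least 20 junctions over both libraries, 3 passed (11.5%). The Sε window chr12:114513000-114513499 held 120 junctions in CtIP_AA (16.4%), 182 in CtIP_KO (25.5%) and 22.6% of Wildtype (odds ratio 0.572, 0.438 to 0.746, exact adjusted p = 0.000640). The Sε window chr12:114514500-114514999, nearer to Sμ, held 169 in CtIP_AA (23.1%), 118 in CtIP_KO (16.5%) and 17.7% of Wildtype (odds ratio 1.51, 1.16 to 1.99, exact adjusted p = 0.0251). The third was the Sγ1 window chr12:114571000-114571499, on the side far from Sμ, with 49 junctions in CtIP_AA (3.73%), 60 in CtIP_KO (6.32%) and 5.72% of Wildtype (odds ratio 0.575, 0.382 to 0.862, exact adjusted p = 0.0455). With each position counted once only the first of these passed, and with windows of 250 bp none of 46 did.

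Single prey positions held few junctions. In Sε the fullest was chr12:114514526, with 11 deletional junctions in CtIP_AA (1.50%), 3 in CtIP_KO (0.421%) and 25 in Wildtype (1.01%). The fullest Sε position of CtIP_KO, chr12:114513187, had 1 junction in CtIP_AA, 5 in CtIP_KO and 1 in Wildtype. In Sγ1, chr12:114572324 and chr12:114573993 had 7 each in CtIP_AA and 0 in CtIP_KO, and chr12:114573715 had 2 in CtIP_AA and 6 in CtIP_KO. Of the 7 at chr12:114572324, 5 were the CtIP_AA Sγ1 join shown above, with the same bait end. Such reads may repeat 1 molecule, which was not tested. In Sμ, chr12:114663404 had 7 in CtIP_AA and 1 in CtIP_KO, and chr12:114663374 had 4 in each of CtIP_AA and CtIP_KO.

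Around each prey break the deposited tables give 20 bases of reference sequence, 10 on each side. AGCT, which reads the same on both strands, occurred in these bases at 78.4% of deletional Sμ junctions in CtIP_AA (75.2 to 81.3) and 69.6% in CtIP_KO (65.1 to 73.7). The odds ratio was 1.59 (1.20 to 2.10, exact adjusted p = 0.00343). In the fullest Sμ window, chr12:114663000-114663499, all junctions with the 20 bases given had the motif, 271 of 271 in CtIP_AA and 142 of 142 in CtIP_KO. Outside that window the share was 64.7% of 428 in CtIP_AA and 54.8% of 292 in CtIP_KO. How much of Sμ lies within 10 bases of AGCT was not counted, so whether prey breaks favour the motif was not tested. At Sγ1 breaks it was 37.3% in CtIP_AA and 39.5% in CtIP_KO (odds ratio 0.911, 0.765 to 1.09, exact adjusted p = 0.438). At blunt deletional Sε joins it was 59.7% in CtIP_AA, 55.8% in CtIP_KO and 53.1% in Wildtype (exact adjusted p = 0.469).

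The bait side also differed. Bait length, the count of bases kept beyond and including the nested primer, was greater in CtIP_AA by a few bases. The median in Sγ1 junctions was 65 bases in CtIP_AA (64 to 65) and 62 in CtIP_KO (61 to 63). Among Sμ junctions it was 65 bases in CtIP_AA (63 to 67) and 61 in CtIP_KO (59 to 63). Among blunt joins of all places it was 65 in CtIP_AA (64 to 67), 62 in CtIP_KO (60 to 64), with 64 in Wildtype. Baits longer than 64 bases, the median of Wildtype blunt joins, made up 50.1% of Sγ1 junctions in CtIP_AA and 41.9% in CtIP_KO (odds ratio 1.39, 1.18 to 1.65, exact adjusted p = 0.000230). The odds ratio was 1.37 in Sμ (1.10 to 1.71, exact adjusted p = 0.00513) and 1.37 among blunt joins (1.10 to 1.72, exact adjusted p = 0.00513). Blunt joins include junctions of the other 2 sets, so the 3 are not independent.

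**Figure D3:**
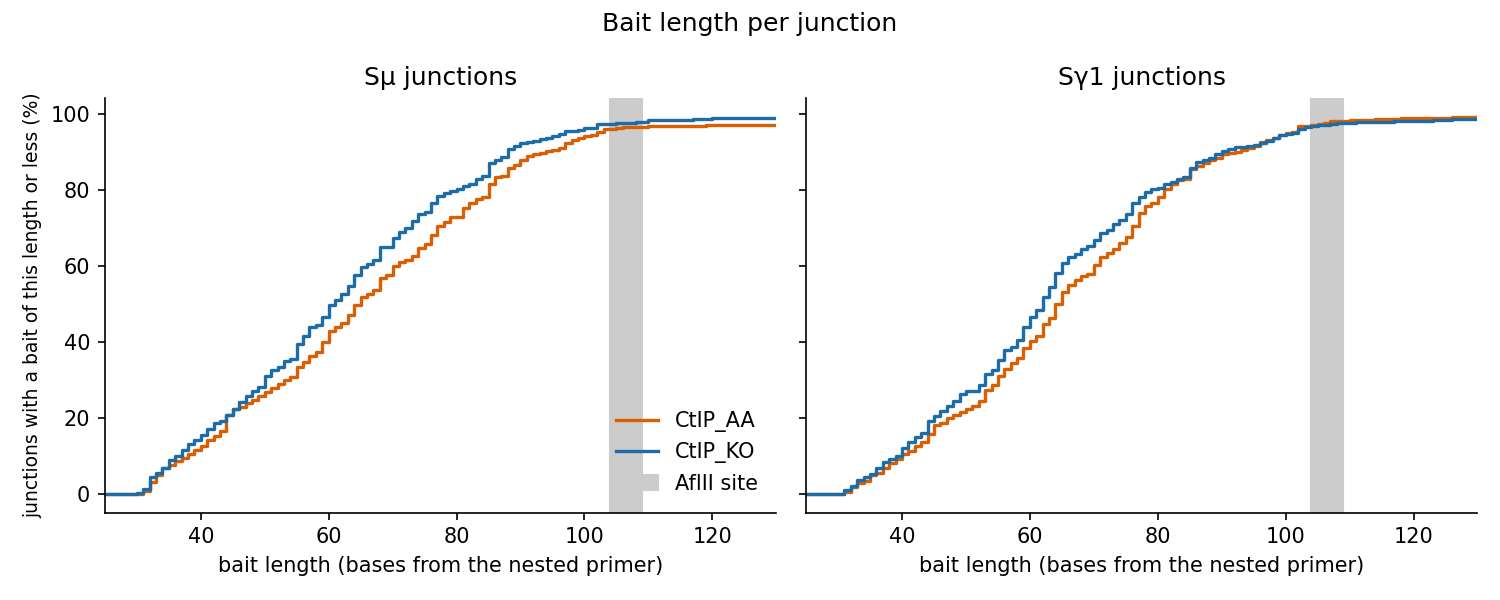
Cumulative share (%) of Sμ and Sγ1 junctions with a bait of the given length or less (bases from the nested primer), for CtIP_AA and CtIP_KO, with the AflII site in grey. The CtIP_AA curve lies below that of CtIP_KO around the medians of 65 and 62 bases in Sγ1, and few baits of either library pass the site.

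The AflII site in the bait shown above occupies bases 104 to 109. A bait that runs past it keeps the site that the enzyme cuts. The bait lengths compared therefore lie almost only in the stretch before the site. Baits that ran past it made up 1.90% of Sγ1 junctions in CtIP_AA (1.30 to 2.77) and 2.39% in CtIP_KO (1.61 to 3.53), and 3.48% of Sμ junctions in CtIP_AA and 2.33% in CtIP_KO. Bait ends fell within an AGCT of the first 130 bases in 15.1% of Sγ1 junctions of CtIP_AA and 14.0% of those of CtIP_KO. AGCT covers 6.15% of these 130 bases, a share that also counts bases where few or no baits end. The shortest Sγ1 bait was 31 bases in both CtIP_AA and CtIP_KO. Sγ1 baits ended before the site in 96.8% of CtIP_AA and 96.4% of CtIP_KO. Whether bait ends favour AGCT was not tested. In Sγ1 the most frequent bait length was 64 bases in both, with 50 junctions in CtIP_AA (3.66%) and 38 in CtIP_KO (3.78%). A bait of 77 bases had 48 Sγ1 junctions in CtIP_AA (3.51%) and 17 in CtIP_KO (1.69%). In Sμ the most frequent length of CtIP_AA was 44 bases, with 36 junctions in CtIP_AA (4.32%), joined to 34 distinct prey positions, and 9 in CtIP_KO (1.62%), joined to 9.

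The last comparison was of the join itself. Insertions, bases at the join that neither side aligned to, were more frequent in CtIP_AA, and no difference in the length of microhomology (at 4 bp) or insertion (at 2 bp) passed the test. Over all junctions, insertions of up to 30 bp made up 30.7% in CtIP_AA (29.1 to 32.3), 26.0% in CtIP_KO (24.3 to 27.7), with 27.9% in Wildtype (odds ratio of CtIP_AA over CtIP_KO 1.26, 1.12 to 1.42, exact adjusted p = 0.00173). Microhomology made up 47.3% in CtIP_AA, 50.1% in CtIP_KO and 49.9% in Wildtype (odds ratio 0.891, exact adjusted p = 0.143), and blunt joins 22.0% in CtIP_AA, 23.9% in CtIP_KO and 22.2% in Wildtype (0.902, adjusted p = 0.227). Of 18 tests of 3 classes, over all junctions and in 5 places, 3 passed (16.7%). The 3 classes add up to the total of each place, so these tests are not independent. The odds ratio of insertions was above 1 in each place, and in the switch regions it was 1.23 in Sμ, 1.15 in Sγ1 and 1.20 in Sε, none past the threshold.

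**Figure D4:**
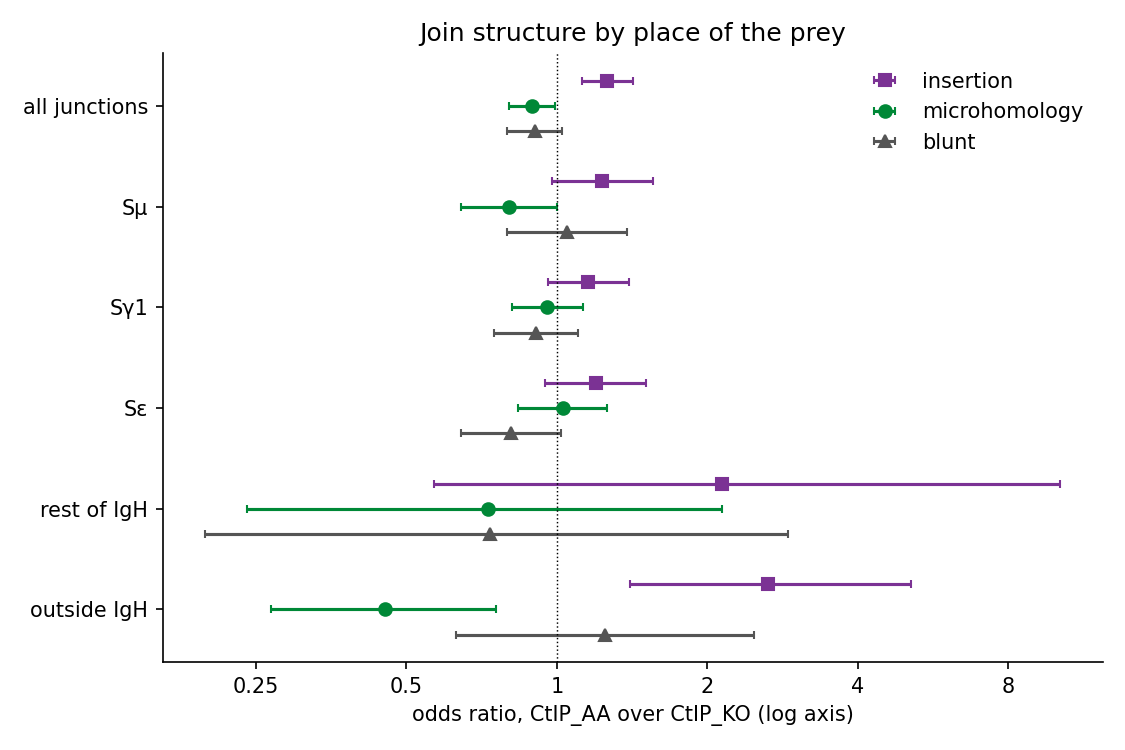
Odds ratios of CtIP_AA over CtIP_KO (log axis, exact 95% intervals) for insertion, microhomology and blunt joins, over all junctions and by place of the prey. Insertion ratios lie right of 1 in every row, from 1.15 in Sγ1 to 2.64 outside IgH, and the rest of IgH has wide intervals.

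The insertion call depended on how the classes were bounded. Without the reads with 6 extra bases, among junctions in IgH, the odds ratio was 1.21 (exact adjusted p = 0.0392). Over Sγ1 and Sε alone it was 1.17 (exact adjusted p = 0.144). Insertions over 30 bp are listed apart, with 447 reads in CtIP_AA, 539 in CtIP_KO and 710 in Wildtype. As a share of junctions and these reads together they were 12.2% in CtIP_AA, 17.4% in CtIP_KO and 7.00% in Wildtype (odds ratio of CtIP_AA over CtIP_KO 0.658, exact adjusted p = 3.26e-09). Counted among insertions, they brought the odds ratio of insertions to 1.01. No read length is given for 69.6% of those with a position in CtIP_AA and 73.9% in CtIP_KO, and in a further 113 CtIP_AA reads and 121 CtIP_KO reads the prey was the primer's own place. The other large insertions numbered 20 in CtIP_AA (0.617%) and 17 in CtIP_KO (0.661%). Their odds ratio was 0.934 (0.463 to 1.90, exact adjusted p = 0.869).

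Outside IgH the odds ratios of microhomology and insertion were farther from 1 than in the other 4 places. Microhomology made up 76 of 137 junctions in CtIP_AA (55.5%, 47.1 to 63.5), 116 of 158 in CtIP_KO (73.4%, 66.0 to 79.7), with 62.7% in Wildtype. The odds ratio was 0.452 (0.269 to 0.756, exact adjusted p = 0.00874). Insertions made up 27.7% in CtIP_AA, 12.7% in CtIP_KO and 26.3% in Wildtype (odds ratio of CtIP_AA over CtIP_KO 2.64, 1.40 to 5.10, exact adjusted p = 0.00874). Microhomology of 1 bp accounted for 7 junctions in CtIP_AA and 26 in CtIP_KO, that of 10 to 14 bp for 24 in CtIP_AA and 13 in CtIP_KO, and that of 15 bp or more for 1 in CtIP_AA and 10 in CtIP_KO. These counts come from the deposited summary, and the positions of the CtIP_AA junctions outside IgH were not analysed here. Whether the difference outside IgH is larger than that in the switch regions was not tested.

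No difference in microhomology length passed the test at 4 bp. Joins over 15 bp, 4 in CtIP_AA and 11 in CtIP_KO, were left out here. Of these, 1 in CtIP_AA and 8 in CtIP_KO lay outside IgH. Among junctions with 1 to 15 bp, 19.3% had 4 bp or more in CtIP_AA (17.4 to 21.4), 18.9% in CtIP_KO (16.8 to 21.1), with 17.8% in Wildtype (odds ratio 1.03, 0.845 to 1.25, exact adjusted p = 0.971). By place the odds ratios were 1.32 in Sμ, 0.870 in Sγ1, 1.02 in Sε and 2.25 outside IgH (1.19 to 4.33, exact adjusted p = 0.0625). Outside IgH, 47 of 75 such joins had 4 bp or more in CtIP_AA and 46 of 108 in CtIP_KO, and with 6 bp as the border the odds ratio passed the threshold (2.54, exact adjusted p = 0.0193). The joins over 15 bp left out there were mostly from CtIP_KO, and whether the call holds with them kept was not tested. In the junction tables, mean microhomology in Sγ1 was 2.35 ± 1.72 bp in CtIP_AA (SD over 700 joins of 1 library) and 2.45 ± 1.85 bp in CtIP_KO (531 joins). In Sμ it was 2.57 ± 1.78 bp in CtIP_AA (353 joins) and 2.62 ± 2.00 bp in CtIP_KO (266 joins). Insertions of 2 bp or more were 62.9% of insertions in CtIP_AA and 62.3% in CtIP_KO (odds ratio 1.02, 0.829 to 1.26, exact adjusted p = 0.843).

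**Figure D5:**
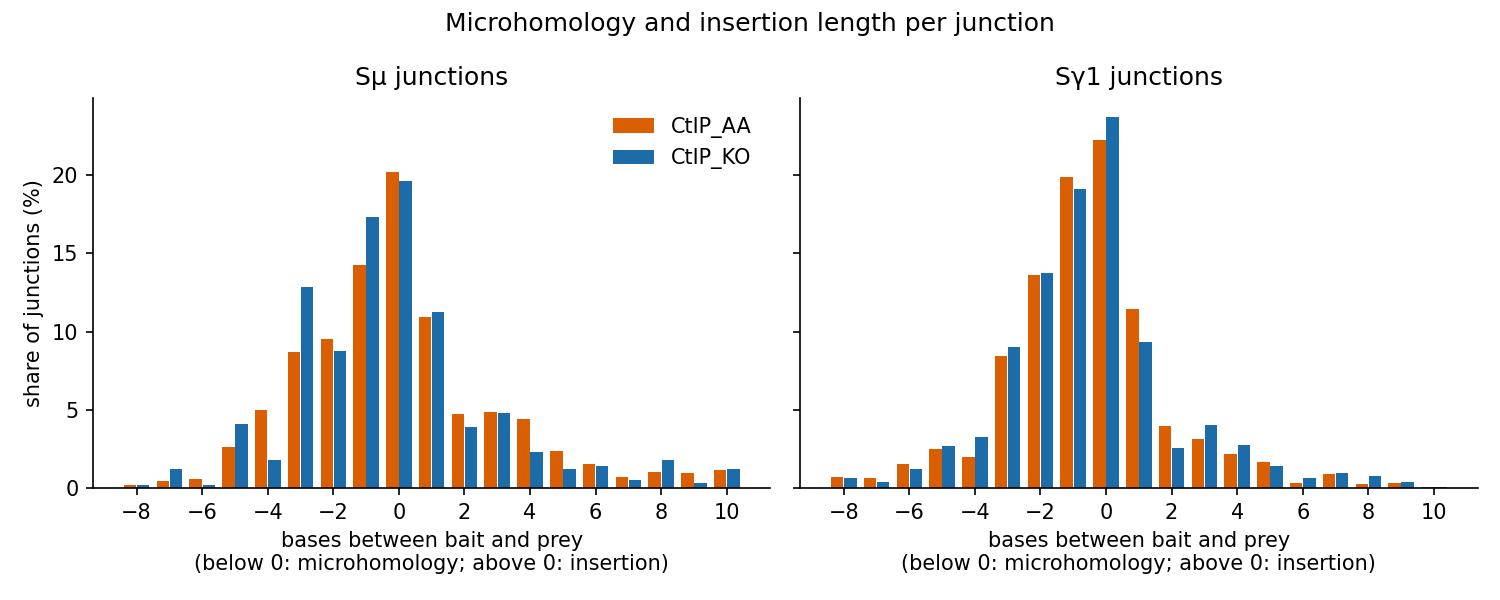
Share (%) of Sμ and Sγ1 junctions by the number of bases between bait and prey, negative for microhomology and positive for insertion, in CtIP_AA and CtIP_KO. Blunt joins form the highest bar in each panel, and microhomology of 4 bp in Sμ has 42 junctions in CtIP_AA and 10 in CtIP_KO.

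The most frequent microhomologies were single bases, and the median length was 2 bp in both regions of both libraries. In Sγ1 the 5 most frequent were the same in CtIP_AA and CtIP_KO. G had 112 of 700 joins in CtIP_AA (16.0%) and 74 of 531 in CtIP_KO (13.9%), and the longest of the 5, CAG, had 35 in CtIP_AA (5.00%) and 32 in CtIP_KO (6.03%). In Sμ, G led with 55 of 353 joins in CtIP_AA (15.6%) and 40 of 266 in CtIP_KO (15.0%). GCTG, which recurs in the repeats on the prey side of the Sμ joins shown above, had 20 in CtIP_AA (5.67%), at 3 bait ends and 19 prey positions, and 2 in CtIP_KO (0.752%). AGCTG, 1 base longer, had 13 in each of CtIP_AA and CtIP_KO. All Sμ microhomology of 4 bp came to 42 joins in CtIP_AA and 10 in CtIP_KO, and that of 5 bp to 22 joins in CtIP_AA and 23 in CtIP_KO. These sequences were counted and not tested.

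Single inserted bases were mostly A or T. In Sγ1, 127 of 161 in CtIP_AA (78.9%) and 67 of 97 in CtIP_KO (69.1%) were A or T (odds ratio 1.67, 0.902 to 3.08, exact adjusted p = 0.202). In Sμ they were 77.2% of 92 in CtIP_AA and 71.4% of 63 in CtIP_KO (odds ratio 1.35, exact adjusted p = 0.454). Join class was also split by bait length at 64 bases. With short baits in Sμ, insertions made up 38.6% in CtIP_AA and 29.6% in CtIP_KO (odds ratio 1.49, 1.08 to 2.06, exact adjusted p = 0.0498), and microhomology 40.7% in CtIP_AA and 50.5% in CtIP_KO (0.675, exact adjusted p = 0.0498). With long baits in Sμ insertions made up 37.0% in CtIP_AA and 36.4% in CtIP_KO (exact adjusted p = 0.933). In Sγ1 neither bait class passed for either kind of join.

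Some reads held 3 parts, with a middle segment from a switch region between the primer and the prey. The examples show the read from the nested primer into the Sε prey, with the middle segment from Sγ1 in capitals.
CtIP_AA read: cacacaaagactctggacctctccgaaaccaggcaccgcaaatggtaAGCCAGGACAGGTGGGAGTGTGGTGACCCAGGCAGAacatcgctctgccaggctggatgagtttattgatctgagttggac
CtIP_KO read: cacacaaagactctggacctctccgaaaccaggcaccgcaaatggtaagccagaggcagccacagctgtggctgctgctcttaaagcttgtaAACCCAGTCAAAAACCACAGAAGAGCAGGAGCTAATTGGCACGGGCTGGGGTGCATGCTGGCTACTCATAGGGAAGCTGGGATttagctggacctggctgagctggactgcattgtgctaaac
The middle segments align to chr12:114574891-114574926 in the CtIP_AA read and chr12:114572362-114572444 in the CtIP_KO read. The class counted was reads whose bait alignment lay away from the primer, 60 of 3020 switch junctions in CtIP_AA (1.99%) and 57 of 2364 in CtIP_KO (2.41%). CtIP_AA over CtIP_KO gave 0.820 as the odds ratio (0.559 to 1.21, exact adjusted p = 0.534). The end of the nested primer was found at the start of 56 of these reads in CtIP_AA and 52 in CtIP_KO. Among those with a Sγ1 prey, the aligned segment lay in Sμ in 22 and in Sγ1 in 16 of CtIP_AA, and in Sμ in 20 and in Sγ1 in 15 of CtIP_KO. Among those with a Sε prey it lay in Sγ1 in 5 of 14 in CtIP_AA and 7 of 19 in CtIP_KO.

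Few joins recurred between libraries. A pair of bait end and prey position was shared by 19 Sγ1 joins, 1.50% of the distinct pairs of CtIP_AA and 1.99% of those of CtIP_KO, and by 20 Sμ joins, 2.57% in CtIP_AA and 3.82% in CtIP_KO. Without the reads with 6 extra bases, 10 were shared in Sγ1 and 18 in Sμ. Mismatches to the reference along the bait, deposited for Sε junctions, were present in 106 of 774 reads of CtIP_AA (13.7%), 95 of 763 of CtIP_KO (12.5%) and 12.8% of Wildtype (odds ratio of CtIP_AA over CtIP_KO 1.12, 0.820 to 1.52, exact p = 0.496). Among reads whose bait alignment starts at the primer they were 93 in CtIP_AA (12.2%) and 78 in CtIP_KO (10.5%), with 1 mismatch in 73.1% of those in CtIP_AA and 75.6% in CtIP_KO.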

How the data were processed

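Linear amplification from Sμ and MiSeq sequencing gave the junctions, per the labels' protocols. The submitters' processing notes name Bowtie2 and mm9. The calling and deduplication of junctions are "not given in the sources used here". Junction counts per place, strand and overlap bin come from the deposited summaries and are not normalized. The deposited position lists and junction tables give 1 line per junction. Emptied lines (9 of 1413 in Sγ1 of CtIP_AA, 6 of 1047 in CtIP_KO) were left out where a position was needed.

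Shares have 95% Wilson intervals. Fisher's exact test (two-sided) gave the odds ratios, with exact intervals and Benjamini-Hochberg adjustment within each kind of result at 0.05. Medians have exact order-statistic intervals. Overlap is prey start minus bait end minus 1 in the read. Baits were measured in reads aligned to within 10 bp of the commonest primer-side end. The reads with 6 bases before the primer in Sε come from the deposited list of mismatched reads, which held all 89 of those in the CtIP_KO Sε table and all 19 of its reads with a middle segment. Tests of middle segments, of AGCT, of inserted bases and of IgH zones were added after the data were seen. Fisher's exact tests and median intervals were tried on simulated data with independent draws. Repeated reads and differences between libraries of the same genotype were not simulated. The libraries and lists were chosen with earlier results of these data known. Items named are every place and class tested, windows past the threshold, up to 3 of the fullest prey positions and bait ends, and the 5 most frequent microhomologies of each library. Depth was 3220 junctions in CtIP_AA and 2555 in CtIP_KO. Alternatives changed the treatment of repeated positions, the denominators, the cut-offs, the window size and the borders. Tests ran in scipy 1.17.1 under Python 3.11.15, with tables in pandas 2.3.3 and numpy 2.4.6, and plots in matplotlib 3.10.9.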

Additional observations from a re-analysis of the deposited data

How the results depend on the processing

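No paired analysis was possible because each genotype is 1 library, and for the same reason no replicate could be left out. Values are odds ratios of CtIP_AA over CtIP_KO. With each prey position and strand counted once, the Sγ1 share (1.10) and the deletional share of Sμ (1.20) and of the 3 switch regions (1.09) missed the threshold. Leaving out junctions outside IgH did the same for the Sγ1 share (1.09), and leaving out Sμ for the pooled deletional share (1.27). Counting large insertions among insertions gave 1.01 for insertions and 1.004 for microhomology, a direction opposite to 0.891, neither past the threshold. Insertions over Sγ1 and Sε alone gave 1.17, which missed the threshold. Microhomology of 4 bp or more over all junctions gave 0.966, against 1.03 over those with microhomology, and insertions of 3 bp or more gave 0.964, against 1.02 for 2 bp or more. Both strands brought the Sμ prey position (0.758) past the threshold.

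An alternative chosen after seeing the data left out the reads with 6 bases before the primer from CtIP_AA and CtIP_KO. For the shares of places and the join classes it covered junctions in IgH only. The borders taken from Wildtype were unchanged. The Sγ1 share (1.12) missed the threshold here, with junctions outside IgH left out as well, so the lost call cannot be laid to these reads alone. This alternative brought the deletional share of Sγ1 (1.42) and the Sμ prey position (0.753) past the threshold. With adjustment over all tests together, the Sγ1 share (1.13) and the deletional shares of Sμ (1.42) and of the 3 regions (1.25) missed the threshold. So did insertions with short baits in Sμ (1.49). The number of windows past the threshold was 3 at 500 bp, 0 at 250 bp, 5 at 1000 bp and 1 with each position counted once. By place, the microhomology length changed direction in the rest of IgH at 2 bp (1.96) and 6 bp (1.88), in Sμ (0.791) and in Sγ1 (1.11) at 6 bp. The insertion length outside IgH did so at 5 bp (0.990), as did blunt joins in Sμ with each pair of ends counted once (0.971). None of these passed. Outside IgH the microhomology length passed at 6 bp (2.54), with joins over 15 bp left out. The cause was not tested for any change. Sε shares, Sγ1 and Sε prey positions and bait lengths kept their direction and call under every alternative run for them.

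Depth limits the rest of IgH, with 48 and 25 junctions in CtIP_AA and CtIP_KO, and single positions, with 11 junctions at most. Repeated reads of 1 molecule are not marked. In Sγ1, 1404 reads of CtIP_AA held 1266 distinct pairs of bait end and prey position, and 1041 reads of CtIP_KO held 953. Intervals and tests count each read as a separate junction. Where reads repeat a molecule, intervals are too narrow and p-values too small, even for counting error.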
